A study of Mus musculus with 4 samples.

Results

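Heme synthesis and breakdown were followed through 9 genes, of 27670 gene labels on the array. They are Alas1, Alas2, Alad, Uros, Urod, Cpox, Ppox and Fech, which encode enzymes that build heme, and Hmox1, which encodes the inducible heme oxygenase that opens it. The genes were chosen by name, as the non-control probes whose gene name in the scanner files is one of these symbols, and the brightest probe stood for a gene. The 9 genes have 11 probes, 2 each for Alas1 and Fech and 1 each for the other 7. All 11 were well above background in both dyes on all 4 arrays, and 0 of their spots were saturated.

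Heme is made partly in mitochondria and partly in the cytosol. The pathway opens with 5-aminolevulinate synthase, which joins glycine to succinyl-CoA. That step has a general form, Alas1, which heme itself represses and which in liver supplies the cytochromes P450, and an erythroid form, Alas2, which supplies hemoglobin. Heme oxygenase releases iron, carbon monoxide and biliverdin, and Hmox1 is abundant in the macrophages of the spleen that take up old red cells. The mouse spleen also holds erythroid precursors.

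The RNA came from male C57BL/6J mice, 13 weeks old, kept for 4 weeks on a purified diet with 1.2% of a nucleoprotein preparation added (NP, 0.5% nucleic acids), or on that purified diet alone (low NP, 0.03% nucleic acids). Total RNA was pooled by diet and tissue, which gives an NP liver pool, a low-NP liver pool, an NP spleen pool and a low-NP spleen pool, and the labels do not say how many mice a pool holds. Each Agilent array carried the NP and the low-NP pool of 1 tissue in 2 dyes, and array 2 of a tissue repeated array 1 with the dyes swapped. The 2 arrays were counted as 1 replicate per diet, so no diet difference was tested and p-values are absent. Sample numbers in the labels change together with the dyes, and whether array 2 held separate pools is not settled by them.

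The diet difference is given as the log2 ratio of NP over low NP, and the number after ± is the distance of either array from the mean of the 2 arrays. For comparison, that distance had a median of 0.10 over all measured liver genes and 0.08 over all measured spleen genes. A gene counted as called if it differed by 1.5-fold or more in 1 direction on each of the 2 arrays. Levels are the log2 signal of a probe in 1 dye after normalization across arrays, and they are compared only for the same probe, since probes differ in brightness. In bulk RNA of a pool, fewer cells of a type and less of a transcript per cell cannot be told apart.

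The low-NP pools held more of transcripts typical of the other organ than the NP pools did, and every diet ratio below rests on the low-NP pools. The source of these transcripts was not tested. Apoa1, an apolipoprotein of hepatocytes, had a level of 16.9 in NP liver and 17.1 in low-NP liver, and of 10.2 in NP spleen and 15.4 in low-NP spleen. Ttr, another hepatocyte transcript, was at 7.72 in NP spleen and 11.7 in low-NP spleen, and Alb was at 14.0 and 18.9, with saturated spots. Hepatocyte transcripts were thus more abundant in low-NP spleen than in NP spleen, and B cell transcripts in low-NP liver than in NP liver. Cd79b, which encodes a signalling chain of the B cell receptor, was at 9.32 in NP liver and 14.3 in low-NP liver, against 16.6 in NP spleen and 16.4 in low-NP spleen. Ms4a1, which encodes CD20, was at 8.49 in NP liver and 13.7 in low-NP liver, and Cd79a was at 7.18 and 8.53. Pancreatic enzyme transcripts were also lower in both NP pools, with 14 of 14 measured genes called in each tissue, medians of -1.07 in liver and -2.11 in spleen, and Reg2 at -2.67 in liver.

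Only 1 of the 9 genes was called in each tissue, and it was a different gene. In liver Hmox1 was lower in the NP pool and the 8 synthesis genes were not called. In spleen Alas1 was lower in the NP pool and the other 8 genes, Hmox1 included, were not called. The rule called 7.95% of 16993 measured liver genes lower and 0.106% higher, and 6.35% of 18428 measured spleen genes lower and 0.0434% higher. A share of 1 in 9, or 11.1%, is close to that background in both tissues. The split of calls in liver was 300 higher and 1743 lower with the scanner software's processed signals, which differ in both background correction and normalization, against 18 higher and 1351 lower here. The median ratio of the 9 genes was 0.02 in liver and -0.01 in spleen, beside -0.01 and -0.02 over all measured genes.

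**Figure D1:**
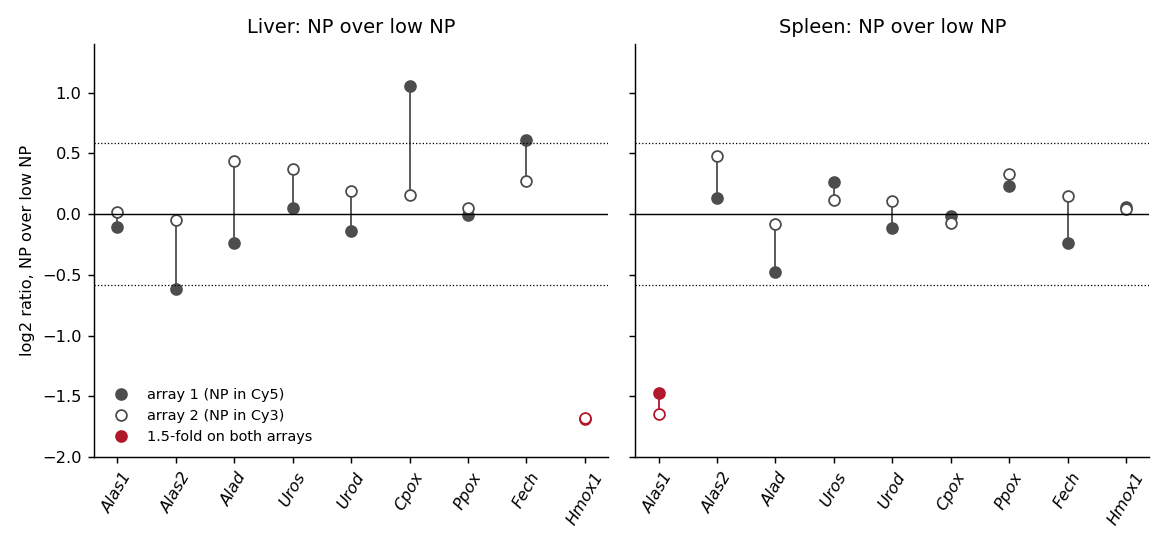
Log2 ratio of NP over low NP (y axis) for the 9 heme genes (x axis, in pathway order) in liver and spleen. Filled points are array 1 and open points array 2, dotted lines mark 1.5-fold, and red marks genes past it on both arrays: Hmox1 in liver at -1.68 and Alas1 in spleen at -1.56.

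Alas1, the general form of the rate-limiting synthase, was lower in the NP pool of the spleen, while its liver pools overlapped. In spleen its probe level was 12.1 and 12.0 on arrays 1 and 2 in the NP pool, against 13.5 and 13.6 in the low-NP pool. The ratio was -1.56 ± 0.09, which is 2.94-fold lower in NP spleen. In liver the levels were 15.0 and 15.0 in the NP pool and 15.1 and 15.0 in the low-NP pool, which overlap, and the ratio was -0.04 ± 0.06. The order of the 4 pools was thus NP and low-NP liver together at the top, then low-NP spleen, then NP spleen.

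The second Alas1 probe gave the same picture, with ratios of -1.31 and -1.52 in spleen and -0.10 and 0.12 in liver. Both probes are 60 bases long and lie on the minus strand of chromosome 9 in mm7, the build of the array files, the brighter at chr9:105963584-105963643 and the second at chr9:105964920-105964979. Both carry the accession of the Alas1 transcript, and the sequences are shown because 2 separate stretches of that transcript give the spleen difference. Their bases read, 5′ to 3′:

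Alas1 brighter probe: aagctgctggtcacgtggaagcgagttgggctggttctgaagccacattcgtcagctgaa

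Alas1 second probe: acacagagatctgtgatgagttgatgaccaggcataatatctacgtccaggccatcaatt

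Alas2, the erythroid synthase, showed small ratios of opposite sign in the tissues and was not called. In liver its level was 13.3 and 13.5 in the NP pool and 14.0 and 13.6 in the low-NP pool, a ratio of -0.33 ± 0.28 in which array 1 gave -0.61 and array 2 only -0.05. In spleen its level was 14.7 and 15.1 in the NP pool and 14.6 and 14.7 in the low-NP pool, a ratio of 0.30 ± 0.17. Array 1 of the liver alone passed 1.5-fold, so without array 2 Alas2 would count as lower in NP liver. Other transcripts of the red cell lineage mostly ran the same way in spleen, as did most B cell, T cell and macrophage markers, as described below.

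Promoter letters were read for the genes that RefSeq sequences of GRCm38.p6 cover. Of the 9 genes 7 matched, with 10 windows of 250 bases before a start. Fech and Hmox1 are named only. Both strands of each window were searched for AGATAA, a site of GATA factors, the zinc finger proteins that act on red cell genes. Of the 10 windows 1 held it, that of Alas2 on the plus strand at chrX:150547167-150547416, where the match begins 86 bases before the start, and 9.99% of 32851 windows of all genes held it. The Alas2 window is shown because Alas2 is the erythroid member, with the match, on the opposite strand, in capitals:

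Alas2 promoter: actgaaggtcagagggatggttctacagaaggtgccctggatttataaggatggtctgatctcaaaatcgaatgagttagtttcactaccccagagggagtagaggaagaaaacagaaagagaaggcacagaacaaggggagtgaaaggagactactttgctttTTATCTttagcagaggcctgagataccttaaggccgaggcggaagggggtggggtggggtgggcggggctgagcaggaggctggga

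The match is a description of letters, and no binding was measured.

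Of the cytosolic enzymes that follow the synthase, Alad, Uros and Urod were not called in either tissue. Alad, which joins 5-aminolevulinate into porphobilinogen, had levels of 14.1 and 14.4 in NP liver against 14.4 and 13.9 in low-NP liver, and of 12.4 and 12.8 in NP spleen against 12.9 and 12.9 in low-NP spleen. Its liver ratio changed sign with the dyes, at -0.23 and 0.44, and its spleen ratio was -0.28 ± 0.19.

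Uros makes the ring of uroporphyrinogen III, and Urod removes carboxyl groups from that ring. Uros was at 9.96 and 9.97 in NP liver and at 9.90 and 9.59 in low-NP liver, a ratio of 0.21 ± 0.16. In spleen it was at 10.1 and 9.12 in the NP pool and at 9.81 and 9.001 in the low-NP pool, a ratio of 0.19 ± 0.07. The 2 spleen arrays thus differed more from each other than the diets did, and the negative-control signal of spleen array 1 was 307 in Cy5 and 156 in Cy3, against 71.9 and 62.7 on spleen array 2. Urod had overlapping pools in both tissues, at 14.3 and 14.5 in NP liver against 14.5 and 14.3 in low-NP liver, and at 14.2 and 14.3 in NP spleen against 14.3 and 14.2 in low-NP spleen. Its ratios were 0.02 ± 0.16 in liver and -0.01 ± 0.11 in spleen.

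Of the last 3 enzymes, which act in mitochondria, Cpox and Fech had mean ratios above 0 in liver without being called. Cpox, which oxidises coproporphyrinogen, was at 13.0 and 12.9 in NP liver and at 12.0 and 12.7 in low-NP liver. Its ratios were 1.05 on array 1 and 0.16 on array 2, a mean of 0.60 ± 0.45. That distance is beyond 0.36, which 95% of measured liver genes stayed under, and Cpox was the 1 gene of the 9 for which this was so. In spleen it was at 11.1 and 11.2 in the NP pool and at 11.1 and 11.3 in the low-NP pool, a ratio of -0.04 ± 0.03.

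Fech, the ferrochelatase that inserts iron, was at 13.7 and 13.8 in NP liver and at 13.1 and 13.5 in low-NP liver, a ratio of 0.44 ± 0.17. Its second probe did not share that difference, with ratios of -0.06 and 0.12. In spleen the brighter Fech probe was at 12.8 and 13.1 in the NP pool and at 13.0 and 12.9 in the low-NP pool, a ratio of -0.05 ± 0.19, and the second probe gave 0.05 and 0.10. Ppox, which makes protoporphyrin IX, was at 10.7 and 10.7 in both the NP and the low-NP liver pool, a ratio of 0.02 ± 0.03. In spleen Ppox was at 10.97 and 10.94 in the NP pool and at 10.73 and 10.61 in the low-NP pool, a ratio of 0.28 ± 0.05 that stayed below 1.5-fold.

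Hmox1 was the gene of the 9 with the smallest distance between the arrays in both tissues, and the only one called in liver. Its liver level was 11.3 and 11.2 in the NP pool, against 13.0 and 12.9 in the low-NP pool. The ratios were -1.69 and -1.67, a mean of -1.68 ± 0.01, or 3.21-fold lower in NP liver. In spleen, where the levels were 15.4 and 15.5 in the NP pool and 15.4 and 15.4 in the low-NP pool, the ratio was 0.05 ± 0.01. A further probe, which the array files describe as a partial heme oxygenase 1 sequence, was not measured in either tissue.

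**Figure D2:**
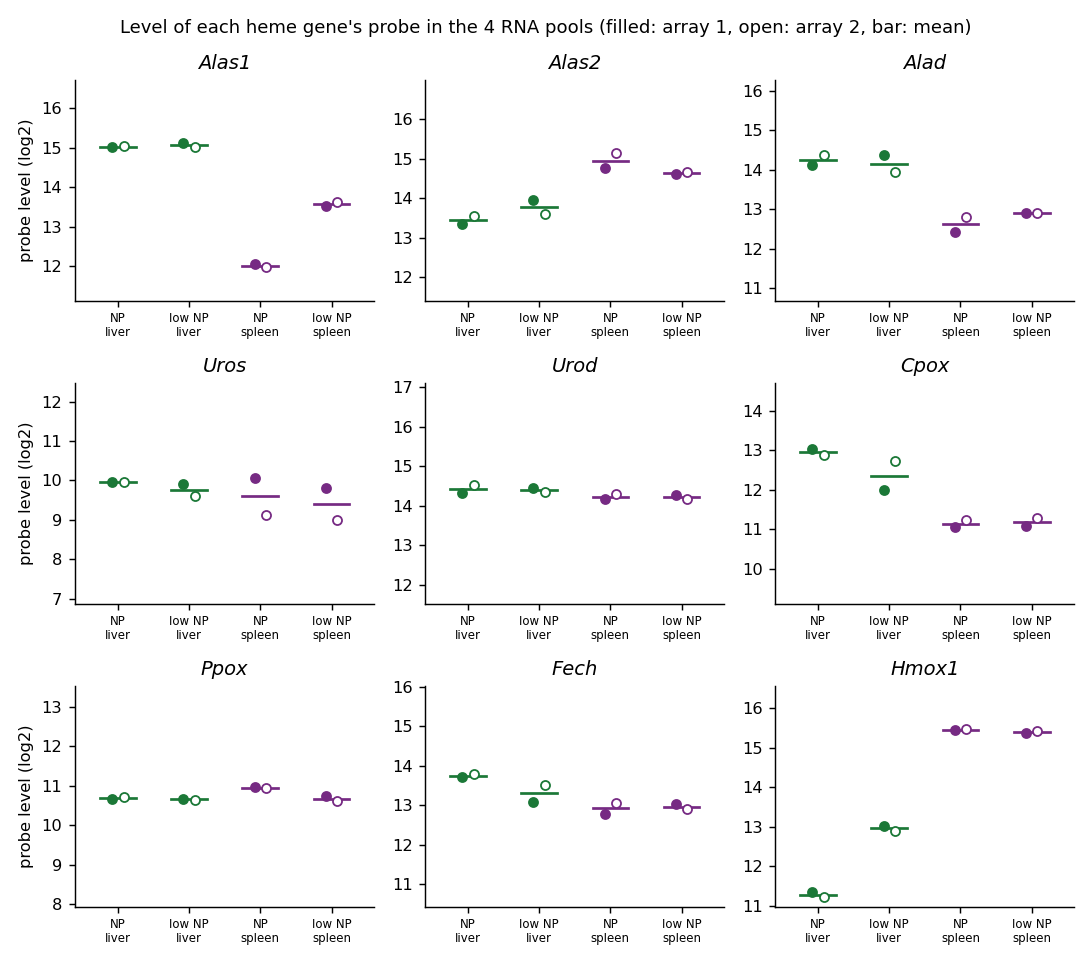
Normalized log2 level (y axis) of the brightest probe of each heme gene in the NP liver, low-NP liver, NP spleen and low-NP spleen pools (x axis), with a filled point for array 1, an open point for array 2 and a bar for their mean. Every panel spans the same number of log2 units, but levels are not comparable between panels; NP spleen stands below low-NP spleen for Alas1 (12.0 against 13.6) and NP liver below low-NP liver for Hmox1 (11.3 against 13.0).

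The 9 genes also differed between the organs, and the difference was read first in the NP pools, a comparison that leaves out the low-NP pools. Levels of the tissues come from different arrays, so the array numbers were paired only to show a spread. In the NP pools Alas1 was 8.07-fold higher in liver than in spleen (log2 difference 3.01 ± 0.05), Cpox 3.53-fold (1.82 ± 0.16) and Alad 3.11-fold (1.64 ± 0.07). Hmox1 was 18.2-fold higher in spleen (-4.18 ± 0.07) and Alas2 was 2.83-fold higher in spleen (-1.502 ± 0.09). These 5 genes were at least 2-fold apart on both array numbers, 3 toward liver and 2 toward spleen, beside 16.9% and 18.4% of the 14779 genes measured in all pools. Fech (0.82 ± 0.10), Urod (0.20 ± 0.04), Ppox (-0.27 ± 0.04) and Uros (0.37 ± 0.48) were not.

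In the low-NP pools the same genes lay closer together. Alas1 was 2.82-fold higher in liver (1.498 ± 0.10) and Hmox1 5.46-fold higher in spleen (-2.45 ± 0.09). Alad (1.26 ± 0.21) still passed 2-fold toward liver on both array numbers, Cpox (1.17 ± 0.27) and Alas2 (-0.87 ± 0.20) did not. The count was 2 genes toward liver and 1 toward spleen, beside 11.4% and 12.2% of all genes. With each channel scaled to its 75th percentile instead, Alas2 was -0.39 in the NP pools and -0.01 in the low-NP pools, so its lead in spleen depended on the scaling. The leads of Alas1 in liver and Hmox1 in spleen passed 2-fold under each of the 6 alternatives tried, in both diets. The alternatives with 1 array number could not fail, since both array numbers had passed.

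The other genes around the pathway had few calls in liver, where 7.95% of all measured genes were called lower and 0.106% higher. Of 19 further genes of heme synthesis and its supply, 0 were called in liver, with a median of 0.08. The largest ratio there was that of Tspo2, an erythroid relative of the mitochondrial translocator protein, at -0.67. Of 17 further genes of heme breakdown, export and scavenging, 0 were called in liver, with a median of 0.06, and Hpx, which encodes the heme carrier hemopexin, was at 0.91 on array 1 and -0.04 on array 2. Of 19 measured regulators, 1 was called, Bach2, at -0.88, which encodes a transcriptional repressor expressed in B cells and related to the heme sensor BACH1. Among 15 heme enzymes of the liver 1 was called, Cyp7a1, whose enzyme limits the rate at which bile acids are made, at 0.75, and their median was 0.06.

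In spleen 25 genes of the same 4 lists were called, all of them lower in the NP pool, as were nearly all calls in spleen (6.35% of all measured genes lower, 0.0434% higher). The first of these lists had 2 of 19 genes called, near the share of all genes. Of the 19 synthesis and supply genes these were Pgrmc1, which encodes a heme-binding membrane protein, at -2.08, and Abcb6, which encodes a porphyrin transporter, at -0.75. Of the 17 breakdown and scavenging genes 5 were called. They were Fabp1 (-8.41), the liver fatty acid binding protein that also binds heme, Hpx (-6.41), the hemoglobin carrier haptoglobin Hp (-3.63), Ugt1a1 (-2.24), which conjugates bilirubin, and the folate and heme transporter gene Slc46a1 (-1.40). Hmox2, the constitutive heme oxygenase, was at -0.09, and the biliverdin reductases Blvra and Blvrb were at 0.04 and 0.03.

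Of 20 regulators, 3 were called in spleen, the nuclear receptor gene Nr1i2 (-2.23), the iron regulatory protein gene Aco1 (-0.83) and the clock repressor gene Nr1d1 (-0.65). The 15 liver heme enzymes were all called lower, with a median of -2.81, beside -0.02 over all measured genes. The lowest were the cytochrome P450 genes Cyp2c29 (-5.47) and Cyp2e1 (-5.17), and the tryptophan dioxygenase gene Tdo2 (-4.41). Cyp3a13 was at -3.90, Ido2 at -3.21 and Cyp7a1 at -3.21. All 10 genes called in the first 3 lists were, like Alas1, higher in the NP liver pool than in the NP spleen pool. The NP spleen level enters both that difference and the call, so the readings are not separate. The same share over all genes called lower in spleen is not given here.

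**Figure D3:**
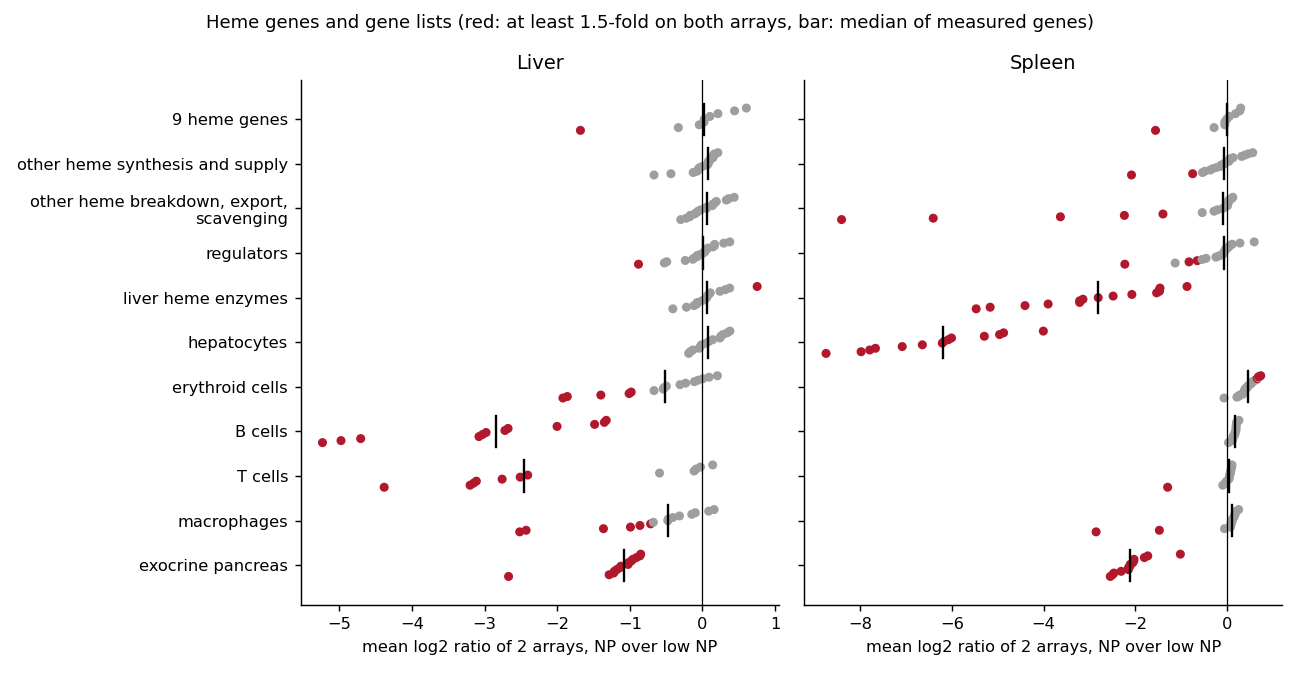
Mean log2 ratio of NP over low NP (x axis, which differs in range between the panels) of every measured gene in the 9 heme genes and the gene lists (rows) in liver and spleen. Points are genes, red points passed 1.5-fold on both arrays, and bars are medians; the 14 hepatocyte markers and 15 liver heme enzymes are all red in spleen, and the 12 B cell markers are all red in liver.

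Markers of other cell types moved beside both called genes. In spleen, 14 of 14 hepatocyte markers were called lower in the NP pool, beside 6.35% of all measured spleen genes. Their median was -6.19, with Akr1c6 largest at -8.75 and Ttr smallest at -4.01. The log2 of their summed linear level was 16.12 and 14.32 in NP spleen, against 21.10 and 20.70 in low-NP spleen. In liver 0 of the 14 were called, and their median followed the dyes, at 0.74 on array 1 and -0.57 on array 2, with log2 summed levels of 21.33 and 20.60 in NP liver against 20.51 and 21.32 in low-NP liver. All 14 were measured in spleen, and the hepatocyte markers' part in the Alas1 ratio was not tested.

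In liver, 12 of 12 B cell markers were called lower in the NP pool, with a median of -2.85, ranging to Ms4a1 at -5.23 and with Blk smallest at -1.32. Their log2 summed level was 12.45 and 12.39 in NP liver, against 16.07 and 16.17 in low-NP liver. Of 12 T cell markers 7 were called lower, with a median of -2.46, Cd8b1 largest at -4.38 and Cd2 smallest at -2.41, and log2 summed levels of 13.14 and 13.18 in NP liver against 14.49 and 14.52 in low-NP liver. Over all measured liver genes 7.95% were called lower. In spleen 0 B cell markers were called.

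Macrophages are the cells with which splenic Hmox1 is best known. Of 15 macrophage markers, 6 were called lower in NP liver, beside 7.95% of all measured liver genes, and the median of the 15 was -0.48. The largest was Vcam1 (-2.52) and the smallest Timd4 (-0.71), and Spic, a transcription factor of red pulp macrophages, was at -2.43. Clec4f and Vsig4, markers of Kupffer cells, were at 0.09 and 0.16 in liver, and at -2.85 and -1.47 in spleen, where they were the 2 macrophage markers called lower. Timd4 and Marco, which Kupffer cells also express, were both called lower in liver, at -0.71 and -1.36. Of these genes, Clec4f and Vsig4 were higher in NP liver than in NP spleen, while Timd4 and Marco were higher in NP spleen. Whether any of them followed Kupffer cells in liver was not tested. The log2 summed level of the 15 was 16.29 and 16.35 in NP liver and 16.86 and 16.76 in low-NP liver. All 15 were measured in liver, and the part of macrophage, B cell or T cell transcripts in the Hmox1 ratio was not tested.

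For a closer reading of sizes, the amount by which the low-NP pool exceeded the NP pool was set, on a linear scale, against the NP level of the other organ. It was computed for genes at least 4-fold higher in that organ, which were Hmox1 for liver and Alas1 for spleen among the 9. Markers also had to be measured in the tissue, well above background in both dyes in the other organ, and free of saturated spots. A marker could be measured through the low-NP pool alone, and 16 of the 25 erythroid markers were measured in liver. For Hmox1 the excess in low-NP liver was 12.7% and 11.6% of the NP spleen level on the 2 array numbers. Macrophage markers had a median of 11.4% (3.37% to 15.0%, 9 genes), B cell markers 17.4% (15.1% to 24.2%, 12 genes) and T cell markers 21.1% (17.0% to 21.7%, 7 genes). Erythroid markers had a median of 2.63% (-0.10% to 8.37%, 12 genes). Hmox1 was within the range of the macrophage markers, below those of the B and T cell markers and above that of the erythroid markers. The 4-fold rule left 9 of the 15 macrophage markers, without Clec4f and Vsig4. The lowest, Adgre1, was at -4.60% and 11.3% on the 2 array numbers. The source of the Hmox1 excess was not tested.

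For Alas1 the excess in low-NP spleen was 22.5% and 25.7% of the NP liver level. Liver heme enzymes had a median of 14.9% (3.52% to 38.1%, 14 genes) and hepatocyte markers 52.8% (16.6% to 175%, 12 genes). The mean for Alas1, 24.1%, lay within both ranges, which are wide, and the source of the Alas1 excess was not tested. Values above 100% stand for levels that exceed those of the liver array, so the shares are no proportion of tissue.

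**Figure D4:**
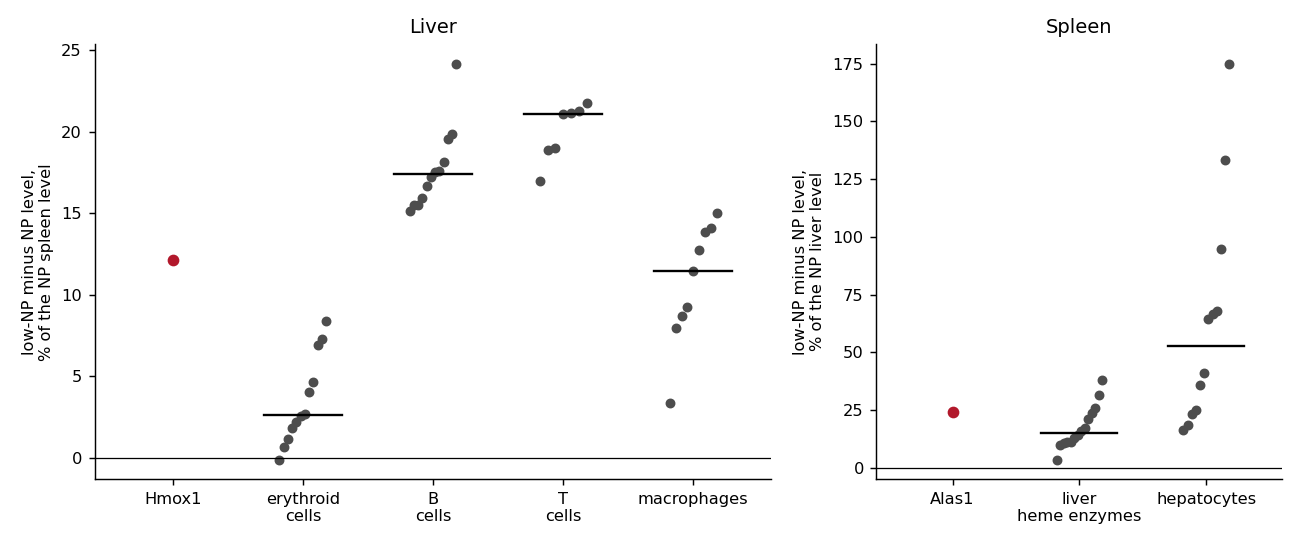
Low-NP minus NP level on a linear scale as a percentage of the NP level of the other organ (y axis, which differs in range between the panels), for Hmox1 or Alas1 (red) and for markers at least 4-fold higher in that organ that passed the filters given in the text (grey), with the median of each list as a bar. Hmox1 in liver lies at 12.2%, within the macrophage markers, and Alas1 in spleen at 24.1%, within the liver heme enzymes and hepatocyte markers.

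Erythroid markers were read beside Alas2. In spleen 24 of 25 measured markers had ratios above 0 and 3 were called higher, among them Hemgn (0.74) and the red cell ankyrin gene Ank1 (0.66). The median was 0.45. The log2 summed level was 18.79 and 18.33 in NP spleen against 17.91 and 18.40 in low-NP spleen, so the sum was higher in the NP pool on array 1 only. Markers of some other cell types also lay mostly above 0 in spleen, with lower medians. These were 12 of 12 B cell markers (0.19), 12 of 15 macrophage markers (0.11) and 8 of 12 T cell markers (0.06). Of the hepatocyte and pancreas markers, 0 of 14 in each list were above 0. Over all measured spleen genes 0.0434% were called higher. In liver 16 of the 25 were measured and 5 were called lower, beside 7.95% of all measured liver genes. Slc4a1, the red cell anion exchanger, was largest at -1.92 and Trim10 smallest at -0.98. The liver median was -0.51, and the log2 summed level was 15.35 and 14.94 in NP liver against 16.85 and 16.59 in low-NP liver. Alas2 ran in the direction of these medians in both tissues, at 0.30 in spleen and -0.33 in liver, and the part of erythroid cells in it was not tested.

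The genes whose levels over the 8 channels were most like those of each called gene, and of Alas2, were found among 12234 genes well above background throughout. Likeness was the root mean square difference of log2 levels after each probe's mean was removed. For Alas1 they were Qdpr (0.07), Rrbp1 (0.07), Got1 (0.07), Fdx1 (0.10) and Cmbl (0.10). Qdpr, which encodes dihydropteridine reductase, had 15.5 in NP liver, 15.5 in low-NP liver, 12.4 in NP spleen and 13.9 in low-NP spleen, and Fdx1 encodes a mitochondrial ferredoxin. For Hmox1 they were Clec4n (0.06), Ier5 (0.11), Serpinb1a (0.11), Rgs2 (0.13) and Ackr3 (0.13). Clec4n, which encodes the C-type lectin dectin-2, had 8.98 in NP liver, 10.8 in low-NP liver, 13.3 in NP spleen and 13.2 in low-NP spleen. For Alas2 they were Scamp2 (0.06), Add1 (0.08), Cldn5 (0.08), Neat1 (0.08) and Cactin (0.08).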

How the data were processed

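The scanner files deposited by the authors give spot intensity in both dyes with local background and quality flags, per the file headers, made with Agilent Feature Extraction 9.5.3.1 per the submitters' processing notes. How the authors made the log10 ratios of the deposited value table was not given in the sources used here. Its columns correlated with the scanner ratio of NP over low NP at -0.99, -0.99, -0.99 and -1.00, so they hold low NP over NP, the reverse of the direction used here. Over all spots, the liver columns had medians of 0.03 and -0.07 and the spleen columns of -0.01 and -0.04, so they were not centred on these medians. Whether the ratios were normalized in another way cannot be read from the medians.

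With limma 3.58.1 under R 4.3.3, intensities were background-corrected (normexp, offset 50) and normalized within arrays by loess, with controls and outlier spots at no weight. Levels per dye came from Aquantile. Local background readings marked as outliers by the scanner software, between 16 and 1265 per array and dye, were first set to the channel's median. On liver array 1 such readings reached 23447 in Cy3, against a median of 48, and with them kept 620 liver genes were called lower, against 1351 here. Replicate spots were averaged and signs turned to NP over low NP. A gene was measured when well above background in at least 1 dye on both arrays of a tissue. On spleen array 1, 93.3% of probes in Cy3 and 94.8% in Cy5 were well above background, against 59.3% to 68.0% on the other arrays. The number of arrays limits the precision. Names came from RefSeq genes of GRCm38.p6, used for names only.

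The genes and lists were chosen with earlier results of these data known. Named are the 9 genes and up to 6 called genes of each pathway list, or else its largest ratio. Also named are the largest and smallest called marker of each list, 3 label checks per organ and 5 most alike genes. Hmox2, Blvra, Blvrb, Spic, Marco and Adgre1, and Clec4f and Vsig4 in liver, were added after their values were seen. Some genes that the rule names are not reported here. Alternatives varied the background correction, scaling, filter, probe choice, threshold and arrays. Tables used Python 3.11.15, pandas 2.3.3 and numpy 2.4.6, and figures matplotlib 3.10.9.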

Additional observations from a re-analysis of the deposited data

Results flagged for a closer look

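Some genes and lists had ratios of 1 sign on both liver arrays and of the other sign on both spleen arrays. These differences between the tissues were not tested, and each rests on 2 arrays per tissue. Of the 9 genes, Hmox1 was at -1.69 and -1.67 on the liver arrays and at 0.063 and 0.042 on the spleen arrays, where median centring turned its mean to -0.25. Alas2 was at -0.61 and -0.052 in liver and at 0.13 and 0.47 in spleen, where its mean was 0.00081 with median centring, against 0.30 here. Cpox was at 1.05 and 0.16 in liver and at -0.018 and -0.071 in spleen, where its mean was 0.11 with the scanner software's processed signals and 0.12 with the deposited value table, so its sign there depends on the processing.

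Of the related genes, some had mean ratios above 0 in liver and below 0 in spleen. They were Abcb6 (0.11 in liver, -0.75 in spleen), Slc46a1 (0.19, -1.40), Nr1d1 (0.075, -0.65), Cyp7a1 (0.75, -3.21), Cyp2c29 (0.064, -5.47), Cyp3a13 (0.37, -3.90), Ido2 (0.31, -3.21), Ttr (0.38, -4.01) and Vsig4 (0.16, -1.47). The opposite held for Tspo2 (-0.67 in liver, 0.46 in spleen), Slc4a1 (-1.92, 0.65), Trim10 (-0.98, 0.27), Ank1 (-0.31, 0.66), Ms4a1 (-5.23, 0.14), Vcam1 (-2.52, 0.15) and Timd4 (-0.71, 0.11).

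Of the lists, the medians in liver and spleen were 0.078 and -0.053 for further heme synthesis and supply, 0.059 and -2.81 for liver heme enzymes, -0.51 and 0.45 for erythroid cells, -2.85 and 0.19 for B cells, -2.46 and 0.056 for T cells, and -0.48 and 0.11 for macrophages.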

How the results depend on the processing

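Hmox1 in liver and Alas1 in spleen were called lower under each of the 11 alternatives run for each tissue, with Hmox1 between -1.69 and -1.54 and Alas1 between -1.82 and -1.44. Some alternatives could not undo these calls. Changing the filter could not, since the probes of both genes were well above background in both dyes on all arrays. Averaging all probes could not for Hmox1, which has 1 probe. A single array could not, since a call needs each array to pass. These 2 ratios and the tissue differences past 2-fold kept their signs. Smaller values did not all do so: the tissue difference of Uros in the NP pools, 0.37 here, was -0.12 without array number 2, and that of Ppox in the low-NP pools, -0.01 here, was 0.14 with 75th percentile scaling. The other 8 genes of each tissue were not called under any of them, except on liver array 1 alone. With 1 liver array, between 0 and 2 of the 9 genes were called higher and between 1 and 2 lower: array 1 added Cpox and Fech higher and Alas2 lower. The calls over all genes moved more. The liver count of genes called higher, 18 here, was 11 with median centring, 300 with the scanner software's processed signals, 309 with the deposited value table, 8 at a 2-fold threshold and 77 to 591 with 1 array; the liver count called lower, 1351 here, was 877 with median centring, 794 at 2-fold and 620 with the background outliers kept, an alternative chosen after seeing the data. The spleen count called higher, 8 here, was 4 with median centring, 47 with the processed signals, 47 with the deposited table, 1 at 2-fold and 49 to 130 with 1 array, and the count called lower, 1170 here, was 772 at 2-fold. Median centring moved the median of all spleen ratios by -0.13, and the processed signals moved it by 0.11 in liver and 0.12 in spleen, so small ratios such as that of Hmox1 in spleen (-0.25 to 0.10) have no settled sign. Of the tissue differences, scaling to the 75th percentile gave 5 genes toward liver and 1 toward spleen in the NP pools and 4 toward liver in the low-NP pools, and 1 array number gave 1 to 2 toward spleen in the low-NP pools. The cause of these moves was not tested, apart from those that a higher threshold or fewer arrays set by construction. No paired analysis was possible because the replicate numbers change together with the dyes, the results come from no test, and each array's ratio already pairs the diets.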
